A study of Mus musculus with 3 samples.

Results

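Of the 28692 genes counted in the postnatal mouse lung, 5 genes of steroid hormone signaling are described here. They are *Esr1* and *Esr2*, which encode the estrogen receptors α and β, *Nr3c1* and *Nr3c2*, which encode the glucocorticoid and the mineralocorticoid receptor, and *Hsd11b1*, which encodes 11β-hydroxysteroid dehydrogenase type 1 (11β-HSD1). The genes were taken by symbol. They were selected on their UMI levels across cell types in these same libraries, so their levels are given as a description, without tests.

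The data were single-cell RNA-Seq libraries from the whole lungs of 3 wild-type C57BL/6 pups, numbered mouse 2, mouse 3, and mouse 4. All 3 were kept in room air (RA) from day 1 of life and were taken at P14, during alveolarization. There was 1 group and no treated or mutant arm, so every comparison was between cell types of the same lungs. The labels do not say whether the pups shared a litter, and the spread over 3 mice may therefore hold less than the full variation between animals.

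Steroid hormone receptors are transcription factors that are held by chaperones until they bind their hormone. They then act in the nucleus together with coregulators on the genes that carry their response elements. Estrogens bind ESR1 and ESR2, glucocorticoids bind NR3C1, and aldosterone and glucocorticoids both bind NR3C2. 11β-HSD1 turns inactive 11-keto glucocorticoid back into active hormone within the cell, using NADPH that hexose-6-phosphate dehydrogenase (*H6pd*) supplies, and 11β-HSD2 (*Hsd11b2*) does the reverse. In the lung, glucocorticoids acting on the mesenchyme are known for their part in maturation before birth, and mineralocorticoid-responsive sodium transport in the epithelium for the clearance of airspace fluid.

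The 3 libraries held 3034, 3135, and 3475 cells with 22476491 to 25192427 UMIs each. Once cells under 200 genes or over 20% mitochondrial UMIs were removed, 7642 of 9644 cells were kept, with median depths of 4853 to 7119 UMIs per cell. Cells were clustered without the 5 genes and named from marker lists into 962 endothelial cells (ECs), 1307 epithelial, 1541 stromal, and 3020 immune cells, and 812 cells in 5 clusters stayed unnamed. The EC marker *Cldn5* was at 2631 ± 102 CPM (UMIs of the gene as a share of all UMIs of a class, on the usual CPM scale, mean ± SD, n = 3 mice) in ECs and at no more than 16.5 ± 7.01 CPM in any other class. Type names mean "like", since they rest on markers alone. *Xist* gave 8, 11, and 33653 UMIs in mice 2, 3, and 4, and the Y-linked *Ddx3y* gave 2124, 2402, and 0, while the labels give no sex. There were 12 barcodes found in more than 1 library, and 200 kept cells were marked as possible doublets.

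The genes differed widely in how often they were counted. *Nr3c1* had 12895 UMIs in 4369 of the 7642 kept cells, *Hsd11b1* had 2950 UMIs in 620 cells, *Nr3c2* had 334 in 293 cells, *Esr1* had 162 in 139 cells, and *Esr2* had 159 in 89 cells. The assay counts 3′ ends with efficiencies that differ between genes, so levels were compared between cells for 1 gene at a time, never between genes. In GRCm38 with GENCODE M21 annotation, *Esr1* (ENSMUSG00000019768) lies at chr10:4611593-5005614 on the plus strand and overlaps no other gene. *Esr2* (ENSMUSG00000021055) lies at chr12:76120419-76177259 on the minus strand, and overlaps 1 pseudogene on the same strand. *Nr3c2* (ENSMUSG00000031618) lies at chr8:76899442-77245012 on the plus strand and overlaps 1 small RNA gene on its own strand and 2 genes on the opposite one. *Hsd11b1* (ENSMUSG00000016194) lies at chr1:193221634-193264075 on the minus strand and overlaps 1 unverified gene model on its own strand and 2 genes, *Lamb3* and an antisense RNA gene, on the opposite one. *Nr3c1* carries the identifier ENSMUSG00000024431. The sources used here do not say whether counting used the strand, so reads over bases that these genes share may not be fully separate.

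*Esr2* was counted almost wholly in ECs, and *Esr1* mainly in stromal cells. Across mice 2, 3, and 4, *Esr2* was at 18.2, 17.6, and 12.6 CPM in ECs (16.1 ± 3.07 CPM, n = 3). Epithelial and stromal cells had 2 and 1 *Esr2* UMIs in all, and immune cells had 0. The last 3 UMIs were in an unnamed cluster of 449 shallow cells (median 843 UMIs). Every EC value was above every value of the other classes. ECs held 153 of the 159 *Esr2* UMIs, or 96.1% ± 3.55% of the *Esr2* UMIs of a mouse. Not all ECs contributed, since 8.47% ± 0.965% of ECs had an *Esr2* UMI. Among ECs with at least 1000 UMIs, each thinned to 1000 UMIs, 1.75% ± 0.339% did.

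**Figure D1:**
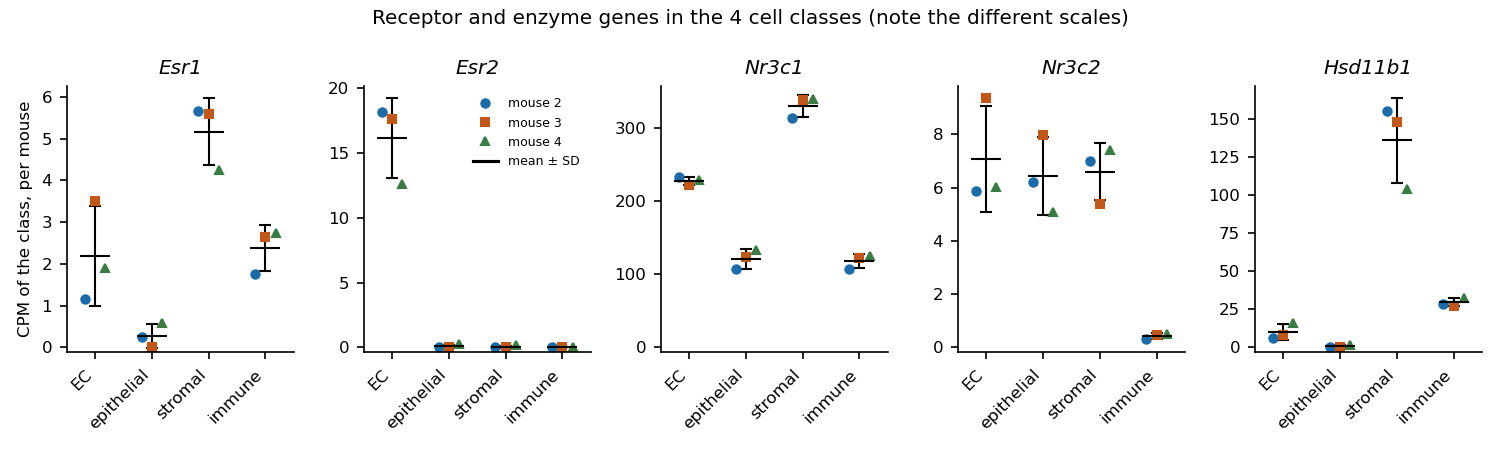
Level of each gene (CPM of the summed UMIs of a class, linear axes that differ between panels) in ECs, epithelial, stromal, and immune cells, with 1 symbol per mouse and bars for mean ± SD (n = 3). *Esr2* stands in ECs at 12.6 to 18.2 CPM and near 0 elsewhere, *Esr1*, *Nr3c1*, and *Hsd11b1* are highest in stromal cells, and *Nr3c2* is alike in 3 classes and near 0 in immune cells.

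Within ECs, *Esr2* was concentrated in cells with arterial markers. In arterial ECs, the cells that line the arteries and are marked by *Gja5*, *Gja4*, *Bmx*, and *Sox17*, *Esr2* was at 113, 96.1, and 57.1 CPM (88.7 ± 28.6 CPM), and 32 of 59 cells had a UMI. Their median depth was 8413 UMIs. A neighboring group of 101 ECs, called EC sub-cluster 4, had *Esr2* at 108, 81.9, and 93.5 CPM (94.5 ± 13.1 CPM), with a UMI in 39 cells. The ranges of the 2 groups overlapped, and both lay far above those of all other EC subtypes. EC sub-cluster 4 was left without a name by the naming rule. *Sftpc*, *Sftpb*, and *Lyz2*, genes of alveolar type 2 cells (AT2) and macrophages, stood among its leading genes beside *Gja5* and *Cxcl12*. Its summed arterial markers reached 4630.5 ± 419 CPM, against 4129 ± 5.22 CPM in the named arterial ECs. Of its 2963 UMIs of AT2 markers, 2629 came from 1 cell, and without that cell *Esr2* was at 97.3 ± 17.5 CPM.

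The 2 groups together made up 160 of the 962 ECs and held 137 of the 153 EC *Esr2* UMIs. Their summed level was 109.9, 89.5, and 74.1 CPM in mice 2, 3, and 4, and they supplied 86.1% ± 7.09% of the *Esr2* UMIs of a mouse. The other 802 ECs had 16 *Esr2* UMIs and a level of 1.91 ± 0.422 CPM. When the whole lung was clustered at once, a single arterial cluster of 143 cells formed, in which *Esr2* was at 114, 96.7, and 76.7 CPM (96.0 ± 18.9 CPM) with a UMI in 70 cells. Its mean lay within the range of the 2 groups. A positive arterial EC carried 1.94 *Esr2* UMIs on average and at most 7.

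All 16 *Esr2* UMIs of the other ECs were in *Aplnr*-type capillary ECs, the general capillary cells of the alveolus. There *Esr2* was at 3.53, 3.13, and 3.84 CPM (3.5 ± 0.356 CPM), from 12 of 438 cells. These 12 cells also had more of the arterial markers, at 3105 CPM, than the 426 capillary ECs without *Esr2*, at 1550.0 CPM, and they were more deeply counted, with a median of 12496.5 UMIs against 7918. *Car4*-type capillary ECs, the large thin cells of the gas exchange surface, had 0 *Esr2* UMIs in 94 cells, which allows a share of up to 3.19%. Venous ECs had 0 in 105 cells, which allows up to 2.86%, and lymphatic ECs 0 in 23 cells, which allows up to 13%. B cells, at a median of 3960 UMIs, had 0 in 1783 cells, which allows up to 0.168%. *Esr2* was so rare in the libraries that a small share of free RNA in the droplets could also leave B cells at 0. Background for this gene was therefore not tested. These limits cover counting error only.

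Over the 21 named types, the genes whose levels followed that of *Esr2* most closely were *Dkk2* (Pearson r = 0.98 of log2(CPM + 5)), *Gkn3* (r = 0.94), *Enpp6* (r = 0.90), *Ptprr* (r = 0.89), and *Gpr21* (r = 0.89). These correlations are a description over types that share the same 3 libraries, and *Dkk2* was itself one of the markers used to name arterial ECs. Arterial ECs were where *Dkk2* and *Gkn3* were highest too.

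**Figure D2:**
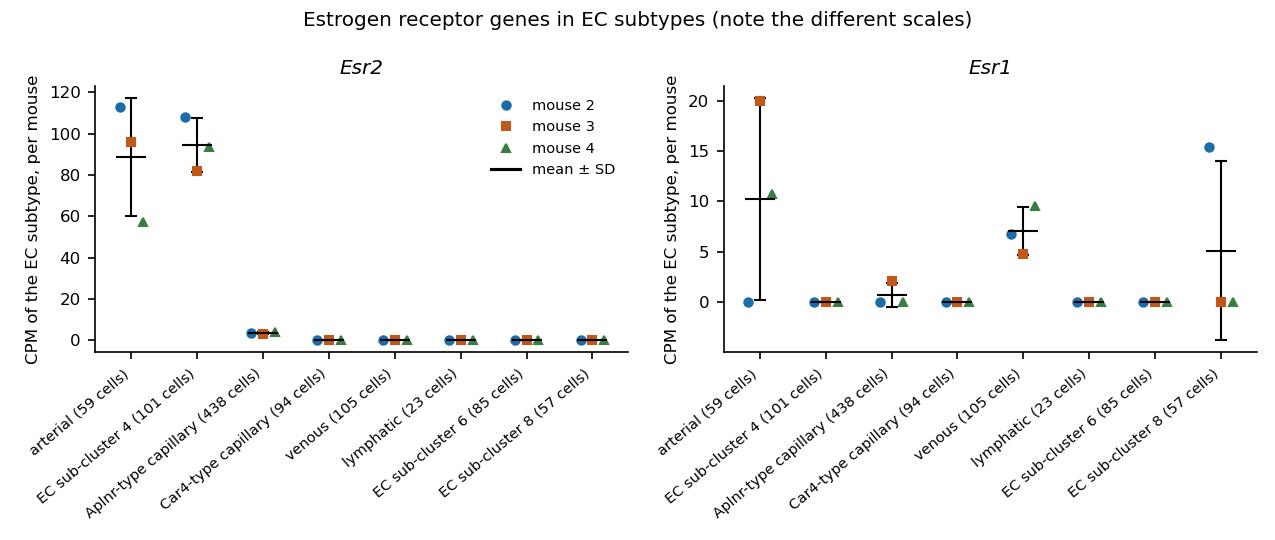
Level of *Esr2* (left) and *Esr1* (right) in EC subtypes, in CPM of the subtype on linear axes that differ between panels, with 1 symbol per mouse and bars for mean ± SD (n = 3). *Esr2* stands at 57.1 to 113 CPM in arterial ECs and EC sub-cluster 4 and at no more than 3.84 CPM elsewhere, whereas *Esr1* was counted in arterial and venous ECs, with mice that spread from 0 to 20.01 CPM.

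*Esr1*, the classical estrogen receptor, was at 5.66, 5.59, and 4.25 CPM in stromal cells (5.17 ± 0.795 CPM), from 90 UMIs in 77 of 1541 cells. Immune cells were at 1.75, 2.66, and 2.73 CPM (2.38 ± 0.547 CPM), ECs at 1.17, 3.51, and 1.91 CPM (2.20 ± 1.2 CPM), and epithelial cells at 0.272 ± 0.290 CPM. Stromal cells lay above the other classes in every mouse, immune cells and ECs overlapped, and both lay above epithelial cells. Of the 139 cells with *Esr1*, 120 had a single UMI.

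Among stromal cells, smooth muscle had *Esr1* at 7.38, 11.2, and 6.42 CPM (8.35 ± 2.55 CPM) and a UMI in 26 of 289 cells. *Col14a1*-type fibroblasts, which surround airways and vessels, were at 12.5, 11, and 2.81 CPM (8.76 ± 5.21 CPM) from 14 UMIs. Myofibroblasts, the contractile cells of the forming septa, were at 5.54, 3.6, and 4.43 CPM (4.52 ± 0.973 CPM), with a UMI in 38 of 807 cells. The ranges of these 3 types overlapped. Within myofibroblasts, the *Aspn*- and *Hhip*-led cluster had 6.69 ± 1.97 CPM and the *Pdgfra*- and *Agt*-led cluster 1.87 ± 0.934 CPM. Pericytes, the mural cells of capillaries, had 0 *Esr1* UMIs in 135 cells, and *Col13a1*-type fibroblasts, the lipid-rich fibroblasts of the alveolus, had 1 UMI in 210 cells.

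Both estrogen receptor genes were counted in arterial ECs, where 2 cells had both. *Esr1* was at 0, 20.01, and 10.7 CPM there (10.2 ± 10.0 CPM), from 8 UMIs that all came from mice 3 and 4. Venous ECs had *Esr1* at 6.80, 4.78, and 9.54 CPM (7.04 ± 2.39 CPM) and no *Esr2*. EC sub-cluster 4, with as much *Esr2* as arterial ECs, had 0 *Esr1* UMIs. Among the 83 *Esr2*-positive ECs, 2 had an *Esr1* UMI (2.41%), against 1.59% of the 879 others, at median depths of 8290 and 7508 UMIs. Within arterial ECs alone, *Esr1* was in 2 of 32 *Esr2*-positive cells (6.25%) and in 18.5% of the 27 others, at median depths of 8378 and 9169 UMIs. With 8 *Esr1* UMIs in arterial ECs, these shares cannot show whether the 2 genes keep to different cells.

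In immune cells, B cells held most of the *Esr1*, at 2.21, 3.73, and 3.69 CPM (3.21 ± 0.868 CPM), from 26 UMIs in 23 of 1783 cells. The *Ms4a1*- and *Vpreb3*-led B cell cluster had 5.0 ± 1.11 CPM and the *Fcer2a*- and *Ighd*-led cluster 1.54 ± 0.837 CPM. T cells had 0 in 205 cells. AT2 cells had 2 *Esr1* UMIs in 1043 cells of a median depth of 16194 UMIs. With 162 UMIs in all kept cells, *Esr1* was about as rare as *Esr2*, and its background was likewise not tested. The genes closest to *Esr1* over the 21 types were *Lefty1* (r = 0.79), *Smoc1* (r = 0.77), *Casp12* (r = 0.75), *Lcat* (r = 0.75), and *Slc22a21* (r = 0.74), all looser than the matches of *Esr2*.

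*Nr3c1*, the glucocorticoid receptor gene, was found in every named type and was highest in stromal cells. It was at 313, 338, and 339 CPM in stromal cells (329.9 ± 15.1 CPM), which held 44.9% ± 0.508% of its UMIs. ECs followed at 233, 221, and 228 CPM (227 ± 5.71 CPM), then epithelial cells at 106, 123, and 132 CPM (121 ± 13.1 CPM) and immune cells at 107, 121, and 124 CPM (118 ± 8.99 CPM). Stromal cells lay above ECs and ECs above both other classes in every mouse, whereas epithelial and immune cells overlapped. The share of cells with a UMI depended on depth, at 87.9% of stromal and 36.5% of immune cells as deposited. Among cells with at least 1000 UMIs, each thinned to 1000 UMIs, the shares were 27.5% and 11.5%.

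All 5 stromal types headed the order of *Nr3c1*. Myofibroblasts were at 324, 374, and 359 CPM (352 ± 25.4 CPM), *Col13a1*-type fibroblasts at 319 ± 29.1, smooth muscle at 312 ± 8.19, pericytes at 296 ± 21.2, and *Col14a1*-type fibroblasts at 285 ± 38.5 CPM. Each neighbor in this order overlapped the next. Within myofibroblasts the *Pdgfra*- and *Agt*-led cluster had 408 ± 23.6 CPM and the *Aspn*- and *Hhip*-led cluster 307 ± 44 CPM, the reverse of the order for *Esr1*.

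EC subtypes were close together in *Nr3c1*. *Car4*-type capillary ECs were at 256 ± 28.1 CPM, venous ECs at 240.0 ± 3.30, arterial ECs at 229 ± 43.5, and *Aplnr*-type capillary ECs at 212 ± 8.41 CPM, and neighbors overlapped. Alveolar type 1 cells (AT1) were at 205 ± 51.1 CPM and AT2 cells at 118 ± 13.2 CPM, and AT1 was above AT2 in each mouse. B cells were at 111 ± 5.09 CPM and lay above dendritic cells at 78.6 ± 8.51 CPM. The lowest level was in club cells, the secretory cells of the airway, at 36.5, 51.4, and 34.2 CPM (40.7 ± 9.37 CPM, 100 UMIs). Club cells differed in depth between libraries, with medians of 49963.5, 31853, and 595 UMIs in mice 2, 3, and 4. The genes closest to *Nr3c1* over the 21 types were *Sec23a* (r = 0.92), *Ulk2* (r = 0.91), *Polr3gl* (r = 0.89), *Ppm1a* (r = 0.88), and *Lysmd3* (r = 0.88).

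*Nr3c2*, the mineralocorticoid receptor gene, was sparse but spread over ECs, stromal, and epithelial cells, and nearly missing from immune cells. It was at 5.86, 9.36, and 6.01 CPM in ECs (7.08 ± 1.98 CPM), 7.0, 5.39, and 7.40 CPM in stromal cells (6.60 ± 1.06 CPM), and 6.21, 7.98, and 5.07 CPM in epithelial cells (6.42 ± 1.47 CPM). These 3 classes overlapped. Immune cells were at 0.291, 0.469, and 0.497 CPM (0.419 ± 0.111 CPM), below the others in every mouse. They gave 6 UMIs in 3020 cells, or 0.199% of cells at a median depth of 3865.5 UMIs, and T cells, NK cells, neutrophils, dendritic cells, and alveolar macrophages had none.

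The highest mean *Nr3c2* was in club cells among epithelial cells, in arterial ECs among ECs, and in smooth muscle among stromal cells. Club cells lay above AT2 and AT1 cells, whereas arterial ECs overlapped EC sub-cluster 4 (9.22 ± 2.92 CPM). Club cells were at 16.2, 20.9, and 15.0 CPM (17.3 ± 3.13 CPM), with a UMI in 26 of 98 cells, although the club cells of mouse 4 were shallow. A stricter filter, which removed cells under 500 genes or over 10% mitochondrial UMIs, gave 11.5 CPM. Arterial ECs were at 15.4, 24.0, and 10.7 CPM (16.7 ± 6.75 CPM, 12 UMIs), and smooth muscle at 14.8, 11.2, and 16.4 CPM (14.1 ± 2.64 CPM), with a UMI in 53 of 289 cells. Pericytes were next among stromal types, at 2.87, 12.3, and 3.69 CPM (6.29 ± 5.22 CPM, 4 UMIs), and overlapped smooth muscle. *Col13a1*-type fibroblasts at 4.8 ± 3.44 CPM and myofibroblasts at 4.32 ± 0.820 CPM lay below smooth muscle in every mouse. AT2 cells were at 5.27, 6.80, and 4.36 CPM (5.48 ± 1.23 CPM) from 91 UMIs, and AT1 cells at 1.89 ± 0.330 CPM from 5 UMIs. AT2 lay above AT1 in each mouse. The genes closest to *Nr3c2* over the 21 types were *Gm5577* (r = 0.86), *Tmem132a* (r = 0.86), *Plcb3* (r = 0.84), *Zdhhc1* (r = 0.84), and *Ift172* (r = 0.84).

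**Figure D3:**
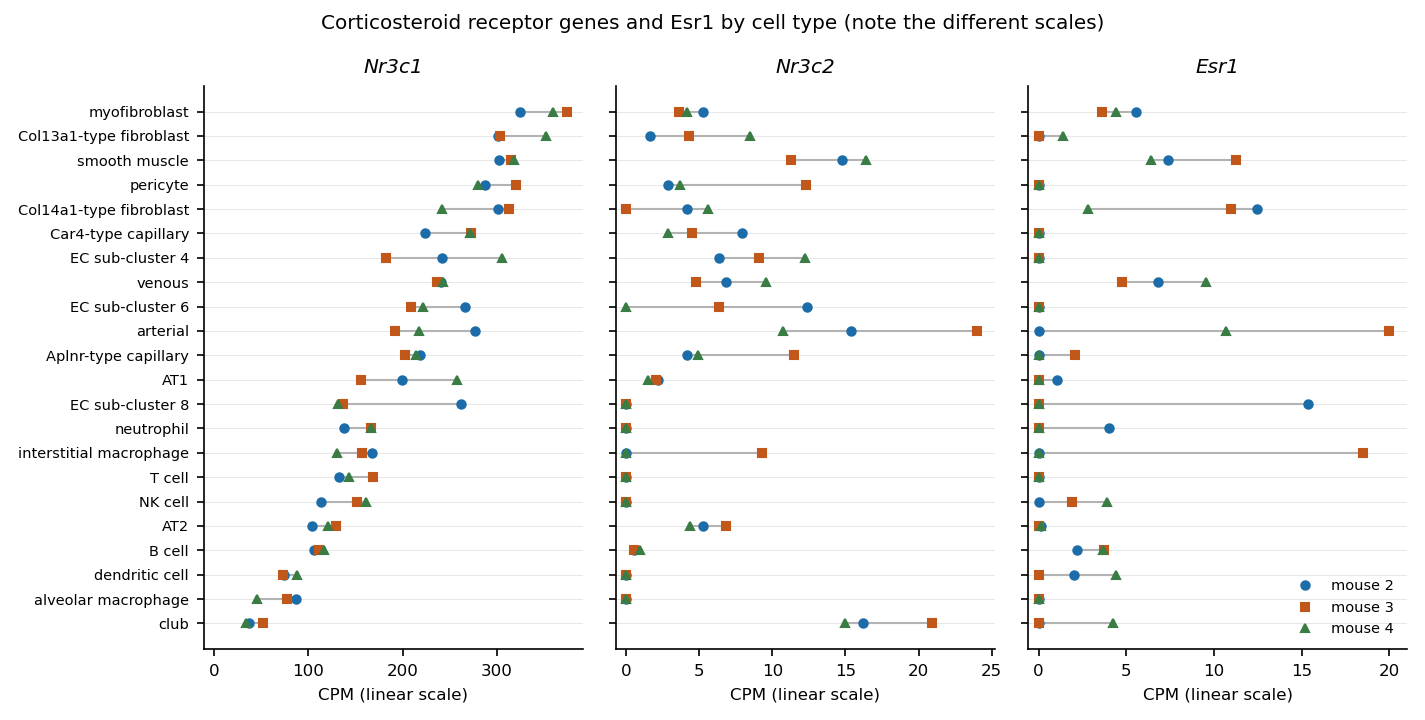
Level of *Nr3c1*, *Nr3c2*, and *Esr1* by cell type in CPM (linear axes that differ between panels), with 1 symbol per mouse and a line over their range, for types with at least 50 cells ordered by the mean level of *Nr3c1*. Stromal types head *Nr3c1*, club cells, arterial ECs, and smooth muscle head *Nr3c2*, and the widest ranges of *Esr1* are those that rest on few UMIs, such as the 2 UMIs of 1 interstitial macrophage in mouse 3.

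*Hsd11b1*, the gene of the enzyme that regenerates glucocorticoid, was counted at high levels in 2 stromal types and at lower ones in lymphocytes and neutrophils. Stromal cells were at 155, 148, and 104 CPM (136 ± 27.6 CPM) and held 79.7% ± 7.11% of its UMIs. Immune cells were at 28.5, 27.5, and 32.5 CPM (29.5 ± 2.65 CPM), ECs at 6.44, 8.19, and 15.8 CPM (10.2 ± 5.0 CPM), and epithelial cells at 0.766 ± 0.544 CPM. The 4 classes did not overlap. An unnamed cluster of 145 dividing cells held 57 more UMIs, at 5.87, 59.1, and 10.8 CPM.

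Pericytes had the highest level, at 1473, 1298, and 1009.8 CPM (1260.1 ± 234 CPM), with a UMI in 98 of 135 cells and 10.2 UMIs per positive cell. The pericytes fell into a cluster of 91 cells at a median of 7865 UMIs, in which 90 cells had *Hsd11b1* (1356 ± 210 CPM), and one of 44 cells at a median of 783 UMIs, in which 8 had it. *Col13a1*-type fibroblasts followed at 623, 573, and 509 CPM (568 ± 57.4 CPM), with a UMI in 147 of 210 cells. The ranges of the 2 types did not overlap. Without the 28 fibroblasts marked as possible doublets, the fibroblast level was 627 ± 30.8 CPM. The other fibroblasts were far lower, with *Col14a1*-type fibroblasts at 22.9, 17.3, and 0 CPM (13.4 ± 11.9 CPM) and myofibroblasts at 6.19, 6.31, and 6.09 CPM (6.20 ± 0.109 CPM). Smooth muscle was at 2.53 ± 2.20 CPM from 11 UMIs.

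Among immune cells, NK cells had *Hsd11b1* at 117, 166, and 181 CPM (155 ± 33.7 CPM), with a UMI in 96 of 159 cells. Neutrophils were at 125, 76.9, and 87.2 CPM (96.4 ± 25.4 CPM), with a UMI in 66 of 464 cells, and T cells at 71.3, 61.4, and 67.1 CPM (66.6 ± 4.96 CPM), with a UMI in 63 of 205 cells. NK cells and neutrophils overlapped, and both were above T cells. B cells were at 2.76, 3.47, and 10.2 CPM (5.46 ± 4.08 CPM), and dendritic cells had 0 UMIs in 179 cells, which allows a share of up to 1.68%. AT2 cells, which gave a background share, had a UMI in 11 of 1043 cells (1.05%) at a median depth of 16194 UMIs, whereas NK cells were at a median of 6208 and neutrophils at 2127.

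Markers of the stromal types with the most *Hsd11b1* were nearly absent from the NK cells. The 6 pericyte markers summed to 5.36 ± 3.08 CPM in NK cells, against 9103 ± 617 CPM in pericytes, and the 7 markers of *Col13a1*-type fibroblasts to 7.27 ± 0.846 CPM, against 12985 ± 278 CPM in these fibroblasts. *Cspg4*, *Cox4i2*, *Notch3*, *Trpc6*, and *Col13a1* were at 0 there. In T cells the sums were 11.8 ± 2.16 and 83.8 ± 57.3 CPM, and in neutrophils 24.2 ± 27.8 and 26.2 ± 26.3 CPM. The line between NK and T cells moved with the clustering. The main NK and T cell groups held 159 and 205 cells. At a resolution of 0.4 no cluster was named NK cell, and 1 cluster of 299 cells named T cell was at 124 ± 5.18 CPM. A separate unnamed immune cluster of 65 cells, led by *Il1rl1*, *Arg1*, and *Cxcr6*, was at 30.2 ± 14.6 CPM. Settings that named 77 to 86 cells as NK cells gave them 192 to 198 CPM. The stricter cell filter (135 NK cells) gave 153 CPM, and doublet removal (156 NK cells) gave 158 CPM.

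In ECs, *Hsd11b1* was rare and uneven. Of the 101 EC UMIs, 79 came from 7 cells of EC sub-cluster 6, a group of 85 cells led by the stromal genes *Mfap4*, *Col1a2*, and *Col1a1*. These 7 cells had a median of 31344 UMIs and, per cell, 64 UMIs of pericyte markers and 94.1 of *Col13a1*-type fibroblast markers, against 0.282 and 0.474 in the other 78. *Aplnr*-type capillary ECs had 19 UMIs in 8 of 438 cells (3.69 ± 3.51 CPM). These 8 cells held 12.5 UMIs of pericyte markers per cell, against 0.0907 in the other 430, and 25% of the 8 cells had any such UMI. Arterial and venous ECs had 0 *Hsd11b1* UMIs.

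**Figure D4:**
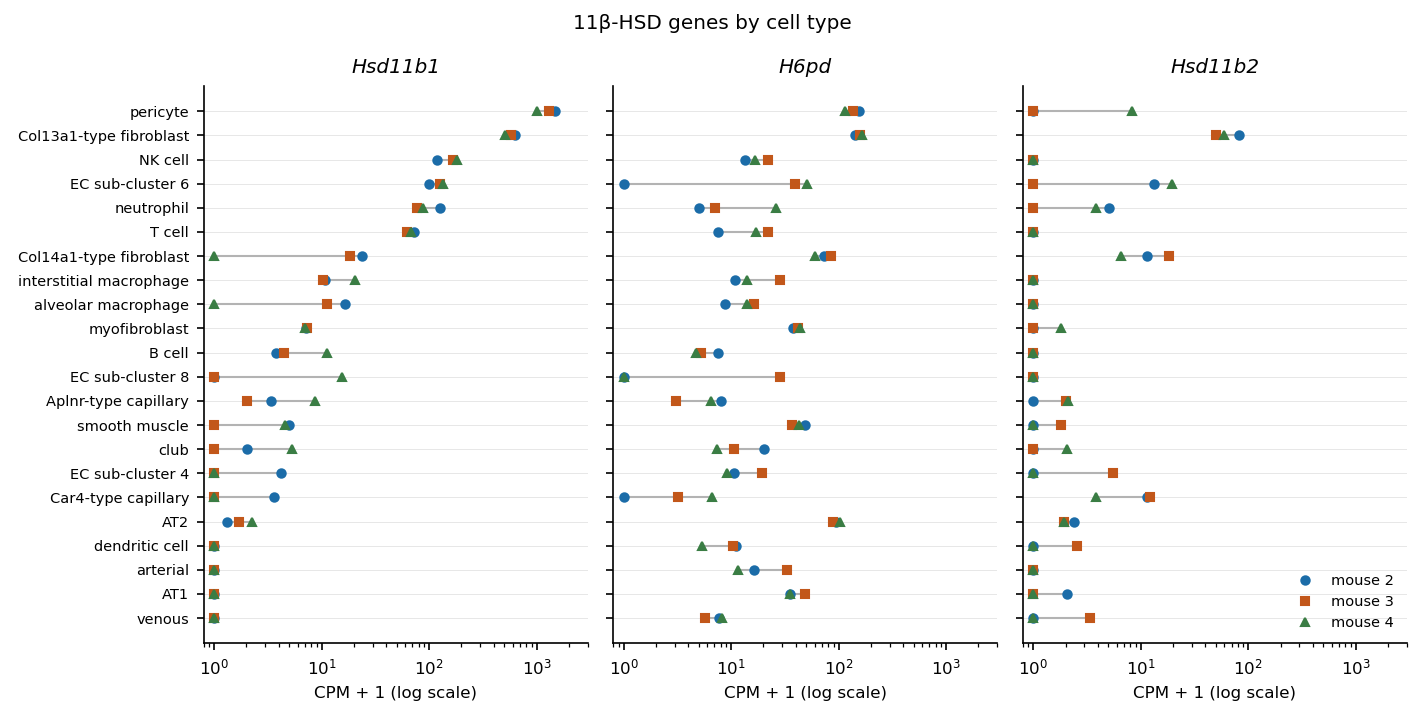
Level of *Hsd11b1*, *H6pd*, and *Hsd11b2* by cell type as CPM + 1 on a log axis, with 1 symbol per mouse and a line over their range, for types with at least 50 cells ordered by the mean level of *Hsd11b1*. Pericytes and *Col13a1*-type fibroblasts are highest for *Hsd11b1* and *H6pd*, and *Hsd11b2* is highest in *Col13a1*-type fibroblasts at 49.6 to 81.4 CPM.

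The genes of the enzymes that work with or against 11β-HSD1 were described in the same types. *H6pd*, which supplies NADPH to 11β-HSD1, was at 142, 159, and 165 CPM in *Col13a1*-type fibroblasts (155 ± 12.1 CPM) and at 152, 135, and 114 CPM in pericytes (134 ± 19.0 CPM). NK cells had *H6pd* at 16.5 ± 4.27 CPM, T cells at 14.6 ± 7.42 CPM, and neutrophils at 11.8 ± 11.7 CPM. *Hsd11b2*, which inactivates glucocorticoid, was at 81.4, 49.6, and 59.2 CPM in *Col13a1*-type fibroblasts (63.4 ± 16.3 CPM), which held 138 of its UMIs in 71 cells, and at 2.46 ± 4.26 CPM in pericytes from 2 UMIs. *Col13a1*-type fibroblasts thus had both the activating and the inactivating enzyme gene, and the inactivating one was lower in pericytes than in these fibroblasts. The levels of the 2 genes were not compared with each other.

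*Nr3c1* was found in most cells with *Hsd11b1*. It was counted in 134 of the 147 *Hsd11b1*-positive *Col13a1*-type fibroblasts (91.2%), against 34.9% of the negative ones, and in 77 of 98 positive pericytes (78.6%), against 27.0%. The positive cells were also far deeper, with medians of 14236 against 1032 UMIs in the fibroblasts and 7567 against 839 in the pericytes, and the part of depth in these shares was not tested. In NK cells, where depths were alike at 6622.5 and 5933 UMIs, *Nr3c1* was in 57.3% of positive and 63.5% of negative cells. In T cells the shares were 50.8% and 51.4% (medians of 5983 and 5909 UMIs). Neutrophils had 51.5% and 24.1% (2848 and 2014.5 UMIs), and B cells 41.7% and 34.6% (4938 and 3951 UMIs). The genes closest to *Hsd11b1* over the 21 types were *Smim4* (r = 0.79), *Rbm46* (r = 0.75), *Bcas3os1* (r = 0.74), *Cxcl14* (r = 0.73), and *Mettl21e* (r = 0.73).

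To place the 5 genes in their pathways, 7 lists of other genes were tested between classes with edgeR's quasi-likelihood test on UMIs summed per mouse and class, with Benjamini-Hochberg adjustment over 14199 genes and a threshold of 0.05. Of 58 distinct list genes, 56 were in the tables and 50 passed the filter on low counts. Between ECs and epithelial cells 39 of 50 passed, when 66.3% of all genes did. Of these, 18 were higher in ECs (33.7% of all genes) and 21 lower (32.6%). Between ECs and stromal cells 30 passed, against 55.8% of all genes, 12 of them higher in ECs (24.6%) and 18 lower (31.1%). Between ECs and immune cells 39 passed, against 69.4%, 21 higher in ECs (34.0%) and 18 lower (35.3%). Between stromal and epithelial cells 41 passed, against 67.3%, 19 higher in stromal cells (35.9%) and 22 lower (31.3%). Without TMM the list genes split 24 higher and 14 lower, 15 and 14, 24 and 16, and 24 and 14 in these 4 comparisons. The shares of the list genes were not tested against those of all genes. The median log2 differences of the list genes were −0.26, −0.08, 0.06, and −0.05 in these comparisons, against 0.04, −0.06, −0.02, and 0.07 over all genes tested.

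**Figure D5:**
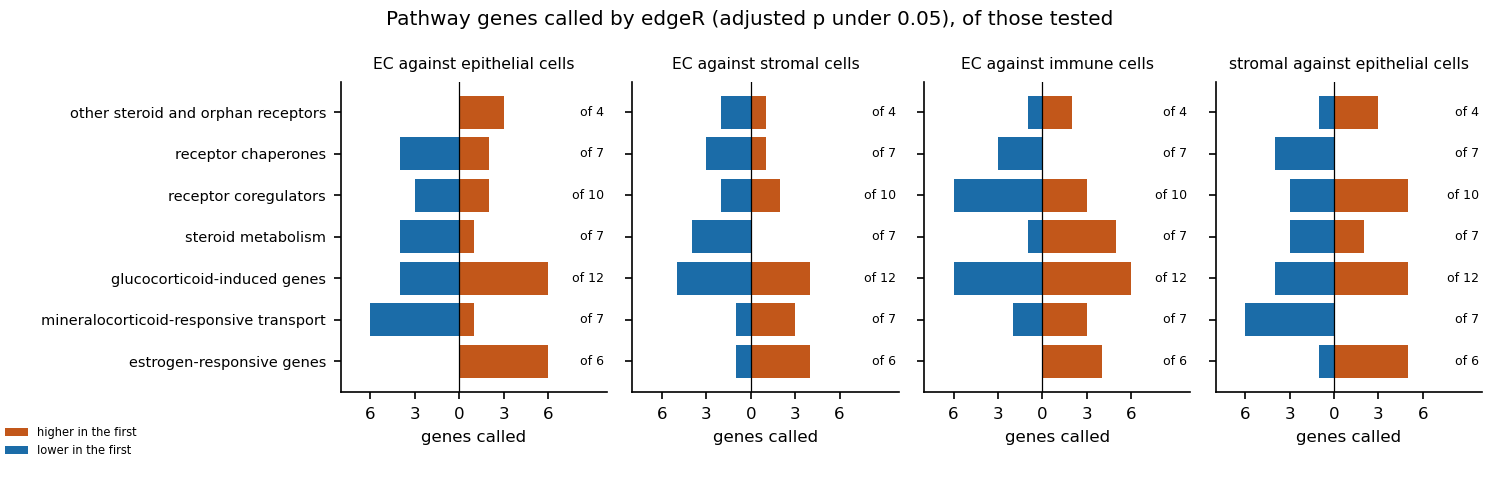
Number of genes of each list that were higher (orange, to the right) or lower (blue, to the left) in the first class of each comparison by edgeR's quasi-likelihood test at an adjusted p under 0.05, with the number tested at the right. All 6 tested estrogen-responsive genes were higher in ECs than in epithelial cells, and 6 of 7 genes of mineralocorticoid-responsive transport were lower. Of the same 6 estrogen-responsive genes, 5 were also higher in stromal than in epithelial cells.

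Among other receptors, the progesterone receptor gene *Pgr* was counted mainly in ECs. *Pgr* was at 7.81 ± 1.60 CPM in ECs and 0.531 ± 0.328 CPM in stromal cells, with a log2 difference of 3.75 (SE 0.47, edgeR adjusted p = 1.40e-05). *Gper1*, the membrane receptor for estrogen, was lower in ECs than in stromal cells, by a log2 difference of −2.21 (SE 0.23). Within ECs, however, *Gper1* stood at 61.6, 84.1, and 74.9 CPM in arterial ECs (73.5 ± 11.3 CPM), at 0, 4.55, and 20.3 CPM in EC sub-cluster 4, and at 0.196 ± 0.340 CPM in *Aplnr*-type capillary ECs. The 2 EC groups with *Esr2* did not overlap in *Gper1*.

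The chaperones and coregulators were mixed. Of 7 chaperones, 2 were higher and 4 lower in ECs than in epithelial cells (33.7% and 32.6% of all genes). The lower ones include *Ptges3*, whose CPM before TMM scaling was not lower in ECs (115 ± 8.28) than in epithelial cells (108 ± 28.1). *Fkbp5*, an immunophilin of the glucocorticoid receptor complex, was higher by a log2 difference of 1.42 (SE 0.30), and *Fkbp4*, which acts against it in that complex, was lower by −2.14 (SE 0.10). Of 10 coregulators, 2 were higher in the same comparison, among them *Ncoa3* (1.66, SE 0.14), and 3 were lower, among them *Ncoa1* (−1.19, SE 0.08).

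For steroid metabolism, *H6pd* was at 9.46 ± 1.90 CPM in ECs, 62.8 ± 5.13 in stromal, and 77.9 ± 3.39 CPM in epithelial cells, with a log2 difference of −2.84 for ECs against stromal cells (SE 0.13, edgeR adjusted p = 8.48e-11). *Hsd11b2* was at 9.35 ± 1.74 CPM in stromal cells and 0.915 ± 0.245 CPM in epithelial cells, a log2 difference of 2.91 (SE 0.29, edgeR adjusted p = 3.35e-07). Of the 7 genes tested, 0 were higher and 4 lower in ECs than in stromal cells (24.6% and 31.1% of all genes).

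Genes that glucocorticoids are known to induce did not move as 1 group. In ECs, 6 of 12 were higher and 4 lower than in epithelial cells (33.7% and 32.6% of all genes), and 4 were higher and 5 lower than in stromal cells (24.6% and 31.1%). The 4 lower ones include *Klf9*, whose CPM before TMM scaling was higher in ECs (136 ± 11.8) than in epithelial cells (129 ± 7.97). *Sgk1*, a kinase that promotes sodium transport, was at 367 ± 11.8 CPM in ECs and 15.7 ± 12 CPM in stromal cells (log2 difference 4.49, SE 0.34, edgeR adjusted p = 2.23e-08), the reverse of the order of *Nr3c1* in these classes. *Errfi1*, a feedback inhibitor of the EGF receptor, was lower in ECs than in stromal cells (−1.24, SE 0.16) and than in epithelial cells (−3.68, SE 0.14). Summed over the 12 genes, neutrophils were highest at 10346 ± 345 CPM and NK cells lowest at 350.2 ± 49.9 CPM, while their *Nr3c1* was at 156 ± 16.6 and 142 ± 25.2 CPM.

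Of the 7 genes of mineralocorticoid-responsive transport, 6 were lower in ECs and 6 lower in stromal cells than in epithelial cells (32.6% and 31.3% of all genes). *Scnn1a*, a subunit of the epithelial sodium channel, was at 157 ± 12.6 CPM in epithelial and 1.02 ± 0.416 CPM in stromal cells (log2 difference −7.60, SE 0.18, edgeR adjusted p = 6.39e-14). *Scnn1b*, another subunit, had 0 UMIs in ECs and 43.8 ± 6.52 CPM in epithelial cells. *Nr3c2* itself was at like levels in the 3 classes.

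The estrogen-responsive genes were higher in ECs than in epithelial cells for 6 of 6 genes, when 33.7% of all genes were. Against stromal cells, 4 of 6 were higher in ECs (24.6% of all genes) and 1 was lower (31.1%). Against immune cells, 4 were higher in ECs (34.0%) and 0 lower (35.3%). In stromal cells 5 of the 6 were also higher than in epithelial cells (35.9%) and 1 was lower (31.3%), so this direction was not particular to ECs. The list was chosen with earlier results of these data known. *Cxcl12*, a chemokine of arterial endothelium, was at 791 ± 59.3 CPM in ECs and 95.4 ± 23.2 CPM in stromal cells (log2 difference 2.94, SE 0.18, edgeR adjusted p = 1.81e-09). *Igf1*, a growth factor, went the other way, at 12.5 ± 0.761 CPM in ECs and 275 ± 12.4 CPM in stromal cells (−4.57, SE 0.17). *Cxcl12* was also at 5145 ± 1116 CPM in EC sub-cluster 4 and 1003 ± 276 CPM in arterial ECs, and *Greb1*, a classical target of ESR1, had 0 UMIs in arterial ECs and was at 23.2 ± 8.90 CPM in myofibroblasts. No list was tested as a set.

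Between the 2 capillary subtypes, which had 0 and 16 *Esr2* UMIs, 11 of 38 tested list genes differed, when 15.1% of 8943 genes did. Of these, 8 were higher in *Car4*-type ECs (7.77% of all genes) and 3 lower (7.28%). The coactivator gene *Ncoa3* was higher (log2 difference 1.06, SE 0.20), and *Cxcl12* was lower (−2.33, SE 0.27). Without mouse 2, 7 of the list genes passed. With the stricter cell filter 8 of 30 passed, 4 higher and 4 lower, when 510 and 511 of 7412 genes did.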

How the data were processed

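Whole lungs of 3 wild-type C57BL/6 pups (P14, RA) were profiled with 10x 3′ v3 chemistry. The authors ran each library through Cell Ranger 3.0.2 (build mm10 per the submitters' processing notes) and deposited the tables as raw UMI counts, with no normalization. The annotation is not given in the sources used here. The design text gives 5677 cells and the tables hold 9644, and the filter between them is not given in the sources used here.

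Cells under 200 genes or over 20% mitochondrial UMIs were removed, and the rest were clustered in R 4.3.3 (Seurat 5.3.0 with SCTransform, package sctransform 0.4.2, 3000 variable genes, 30 principal components, resolution 0.8). ECs were clustered again with 20 components. The 5 genes and all list genes were left out of the variable genes. Clusters were named from marker lists. The members, the lists and the naming thresholds were chosen with earlier results of these data known. Doublets were scored with scrublet (scanpy 1.11.5). As its automatic threshold marked under 0.5% of cells, the top-scoring cells were marked instead (0.8% per 1000 cells) and kept.

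Raw counts were summed per mouse and type. CPM is a sum divided by all UMIs of that mouse and type. Sums were compared with edgeR 4.0.16 (quasi-likelihood, TMM, filterByExpr, Benjamini-Hochberg) or, as an alternative, DESeq2 1.42.0, after the code was tested on simulated data. The sums are paired by animal. Deviations from the class means of 2 sums of a mouse correlated at r = 0.034 to 0.283 (18 pairs), and the mouse was added as a block in another fit. Limits for a count of 0 are 3 counts. List genes named are the up to 2 per list and direction with the largest log2 difference among those past the threshold and changed one way in 3 of 3 mice, and likeness genes are the 5 highest Pearson r among genes with at least 100 UMIs. *Klf9*, *Ptges3*, and the values by type of *Gper1*, *Greb1*, *Cxcl12*, *H6pd*, and *Hsd11b2* were chosen after they were seen. Alternatives covered cell filters, normalization, resolution, doublets, and each mouse left out. Results for some list genes are not reported here.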

Additional observations from a re-analysis of the deposited data

How the results depend on the processing

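The class with the highest level stayed the same for all 5 genes in 9 of 9 settings of cell filter, normalization, resolution, and doublet removal, the main setting included. At a resolution of 1.2 the levels in that class equaled the main ones, and at 0.4 nearly so, so changing the resolution tested little here. In these settings the level in that class ranged from 5.08 to 5.27 CPM for *Esr1*, 14.6 to 16.8 for *Esr2*, 325 to 333 for *Nr3c1*, 6.68 to 7.30 for *Nr3c2*, and 117 to 139 for *Hsd11b1*. Leaving out 1 mouse at a time gave 4.92 to 5.63, 15.1 to 17.9, 325 to 339, 5.93 to 7.69, and 126 to 152 CPM in the same order. The order of the 3 leading classes of *Nr3c2* has no meaning within their overlap. Of 193 alternative values, 182 stayed within the spread or within 1.5 times the count and 11 moved. The 182 include the levels with 1 of the 3 mice left out, which could not have moved by this rule. Dropping 1 of 3 values always shifts the mean by less than their SD, so these levels are no test of robustness. The same omissions gave 36 to 37, 27 to 28, 37 to 39, and 36 to 38 list genes called in the 4 class comparisons, and 7 to 11 between the capillary subtypes, where mouse 2 gave the low value. With the mouse as a block the counts were 41, 32, 39, 40, and 12, and of 90 calls of list genes that met the naming rule, 1 was lost, *Hsd11b2* for ECs against epithelial cells. Of these calls 5, 6, and 7 were lost without mouse 2, 3, and 4, and 3 without TMM. Without TMM the median of all genes moved from 0.04 to 0.53 for ECs against epithelial cells, and 0 of the 90 calls reversed. *Esr1*, *Esr2*, and *Nr3c2* are limited by depth, with 159 to 334 UMIs, so a type of under 100 cells at 0 is not shown to lack them.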

Other observations

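The steroid lists also held genes with a pattern outside the comparisons above, named here after their values were seen. *Cyp11a1*, which encodes the enzyme that starts steroid synthesis from cholesterol, was counted in 45 of 45 basophils or mast cells, at 1220, 1451, and 1356 CPM (1343 ± 116 CPM, n = 3 mice). These cells held 282 of the 293 *Cyp11a1* UMIs of immune cells, and dendritic cells were next at 2.68 ± 4.65 CPM. *Cyp19a1*, which encodes aromatase, and *Sult1e1*, which encodes estrogen sulfotransferase, had 0 UMIs.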
